A study of Mus musculus with 16 samples.

Results

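Integrins, talins and the adaptors of the costamere were followed as a group of 10 genes in quadriceps muscle of wild-type and *Mtm1* knockout mice fed with or without tamoxifen. The members were the rows of the count table whose symbol was *Itga7*, *Itga5*, *Itgav*, *Itgb1*, *Itgb5*, *Tln1*, *Tln2*, *Vcl*, *Ilk* or *Ptk2*. These are 10 of the 41388 genes of the table, and each symbol matched 1 row. The study sequenced total RNA from quadriceps of C57BL/6 mice at postnatal day 36, in 16 libraries of 4 groups. WT mice were wild type on standard chow, and WT + TAM mice were wild type given tamoxifen in the chow from day 21 at 40 mg/kg per day. *Mtm1* KO mice (genotype mtm1 -/-, a germline deletion of exon 4 in all cells) were on standard chow, and *Mtm1* KO + TAM mice carried the same deletion and had the same tamoxifen chow. The comparisons ask which members differ by genotype and whether tamoxifen moves them.

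Integrins are receptors made of 1 alpha and 1 beta subunit that tie the cell to the extracellular matrix. Talin binds the cytoplasmic tail of the beta subunit, switches the receptor on and links it through vinculin to actin, while integrin-linked kinase (ILK) and focal adhesion kinase (FAK, gene *Ptk2*) pass signals from the same sites. In skeletal muscle these proteins sit in costameres, which couple the outer sarcomeres to the membrane, and at the myotendinous junction. Myotubularin, the product of *Mtm1*, is a phosphoinositide phosphatase of endosomes, the compartments through which integrins are recycled.

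The sequences show where the members are alike and what a count per gene can tell apart. The coding sequences of *Tln1* (transcript Tln1-201, 7626 bases) and *Tln2* (Tln2-207, 7635 bases) were identical at 71.71% of 7610 aligned bases. The most alike 90 bases of the talins are shown because *Tln2* is a called member below and is set against *Tln1*. The 10 bases that differ are in capitals. The stretches are coding bases 6826 to 6915 of Tln1-201 and 6835 to 6924 of Tln2-207, from the GENCODE vM21 transcripts (GRCm38).
Tln1: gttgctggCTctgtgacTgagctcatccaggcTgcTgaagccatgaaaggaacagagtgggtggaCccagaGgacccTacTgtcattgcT
Tln2: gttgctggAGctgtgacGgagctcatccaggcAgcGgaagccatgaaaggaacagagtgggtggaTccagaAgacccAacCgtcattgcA
Of the 50-base stretches in their transcripts, 0.364% for *Tln2* and 3.15% for *Tln1* occurred in any other gene, those of *Tln1* all in *Creb3* on the opposite strand.

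The integrin tails to which talin binds are shown as the last 120 coding bases before the stop, with the codons of the NPxY motif, a docking site for talin and kindlin, in capitals. They are coding bases 2275 to 2394 of Itgb1-201, 216 to 335 of Itgb1-204 and 2278 to 2397 of Itgb5-202.
Itgb1-201: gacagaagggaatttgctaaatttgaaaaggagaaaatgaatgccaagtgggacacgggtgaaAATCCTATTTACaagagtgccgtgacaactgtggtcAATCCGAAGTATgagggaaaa
Itgb1-204: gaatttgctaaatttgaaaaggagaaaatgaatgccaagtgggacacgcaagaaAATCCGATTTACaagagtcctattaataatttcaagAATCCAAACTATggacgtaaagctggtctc
Itgb5-202: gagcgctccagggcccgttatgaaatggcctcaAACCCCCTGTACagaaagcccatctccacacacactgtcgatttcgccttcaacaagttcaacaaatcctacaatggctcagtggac
The annotation gives *Itgb1* tails of more than 1 kind, each with 2 such motifs, and the *Itgb5* tail has 1 in this stretch. Counts were deposited per gene, so the tails of *Itgb1* cannot be told apart in these data.

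*Mtm1*, the targeted gene, had 341 to 369 counts in WT and 282 to 459 in WT + TAM, against 63 to 76 in *Mtm1* KO and 53 to 97 in *Mtm1* KO + TAM. The library labelled WT replicate 1 had 74 *Mtm1* counts, within the range of the knockouts, and so goes against its label. It and KO replicate 12 (85 counts) were left out by the study and are left out here, with their values given apart, which leaves 3 libraries for each untreated genotype and 4 for each genotype on tamoxifen. Total counts were 25116179 to 29847222 in the 16 libraries. Between 23.6 and 27.6% of all counts in WT fell on the 10 genes with the most, and between 16.9 and 18.8% in *Mtm1* KO. A level below is the deposited RPKM (reads scaled by gene length and library total) divided by the library's TMM factor, a scaling that assumes most genes do not change. Calls are adjusted p-values of at most 0.01 in edgeR's quasi-likelihood test over all genes. The study's methods state that its n counts individual mice, while the labels do not tie libraries to animals.

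The levels of the members spanned a wide range. *Itgb1*, which pairs with most alpha subunits of muscle, was the highest in all 4 groups, with 82.3 ± 6.56 (SD, n = 3) in WT, and no library of it overlapped with any of the next gene. In WT, *Itga7* (24.8), *Vcl* (22.7), *Ilk* (21.5) and *Itgb5* (21.3) followed, and neighbours in this order overlapped between libraries. *Tln1* (11.6) and *Tln2* (11.2) overlapped in WT, as did *Itga5* (4.81) and *Itgav* (3.73), the lowest, and *Ptk2* lay at 6.51. In *Mtm1* KO, *Ilk* (27.9) stood above *Itgb5* (19.5) with no overlap, and *Vcl* (18.8) came after *Itgb5*, with which it overlapped. *Tln1* (16.3) stood above *Itga5* (7.98), which in turn stood above *Tln2* (5.53), with no overlap between these neighbours, while *Tln2*, *Ptk2* (5.35) and *Itgav* (5.18) overlapped in this order. All 10 members passed the filter on low counts in every comparison.

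**Figure D1:**
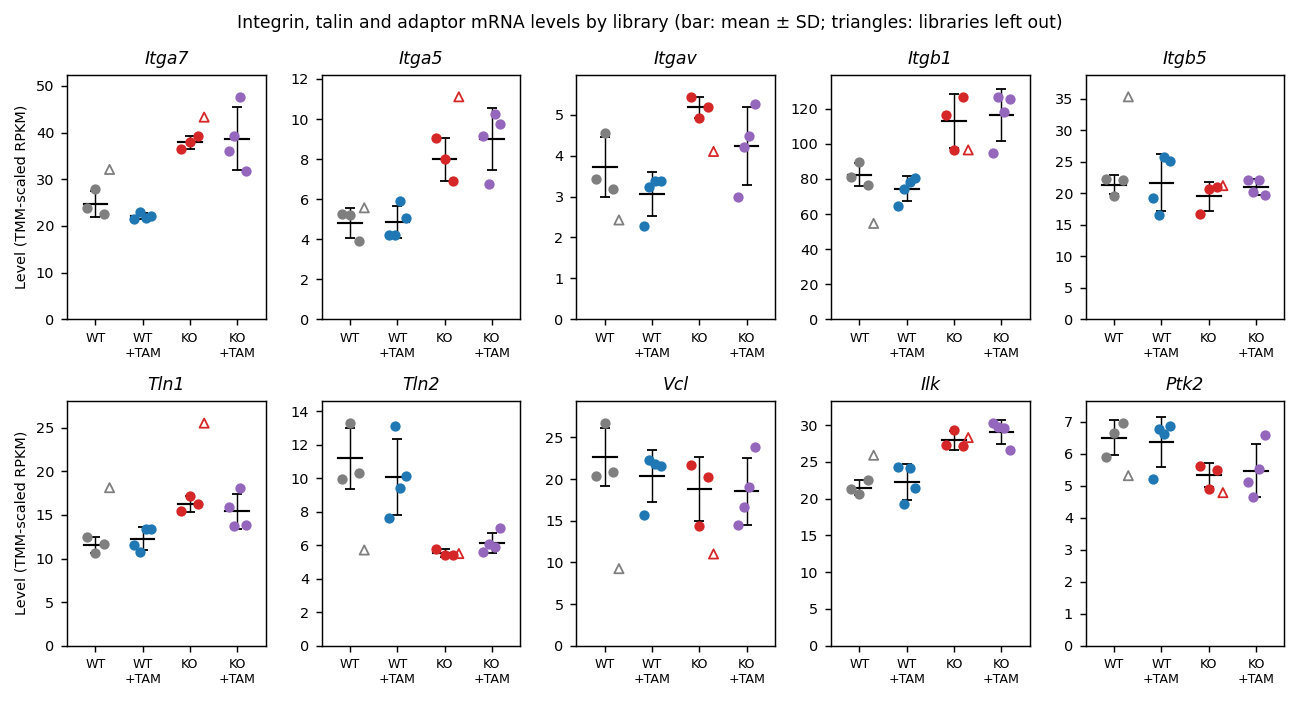
Level (TMM-scaled RPKM, linear axes from 0) of each member in every library of the 4 groups, with bars for the mean ± SD of the libraries used and open triangles for both libraries left out. Triangles aside, *Itga7*, *Itga5*, *Itgb1*, *Tln1* and *Ilk* lay above the controls in both genotype comparisons and *Tln2* below, while *Itgb5* and *Vcl* overlapped in both.

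Between genotypes, *Tln2* mRNA was called lower in *Mtm1* KO, and *Itga7*, *Itga5* and *Itgb1* mRNA were called higher in *Mtm1* KO + TAM, each against the wild type on the same chow. Each had the same direction on the other chow, and the genotype effects were not shown to differ between chows, as given below. In *Mtm1* KO against WT, 1 of the 10 members was called (*Tln2*, lower), where 3.6% of 14740 genes tested were called (1.91% higher, 1.69% lower). In *Mtm1* KO + TAM against WT + TAM, 3 of 10 were called (*Itga7*, *Itga5* and *Itgb1*, all higher), where 6.72% of 14563 genes were called (3.42% higher, 3.3% lower). These comparisons share no libraries. The median log2 fold change of the members was 0.44 in the first and 0.36 in the second, against 0.02 and -0.01 over all genes tested. At an adjusted p of at most 0.05, 4 members passed in *Mtm1* KO against WT (*Itga7*, *Itga5* and *Tln1* higher, *Tln2* lower, background 12.8%, 6.26% higher and 6.53% lower) and 5 in *Mtm1* KO + TAM against WT + TAM (*Itga7*, *Itga5*, *Itgb1* and *Ilk* higher, *Tln2* lower, background 17%, 8.19% higher and 8.81% lower). With 3 libraries a group, 6 members lay wholly above and 2 wholly below WT, where 36.3% of all genes did not overlap (17.4% above, 18.9% below). With 4 a group on tamoxifen, 5 lay above and 1 below, where 22.5% did not (10.9% above, 11.6% below).

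**Figure D2:**
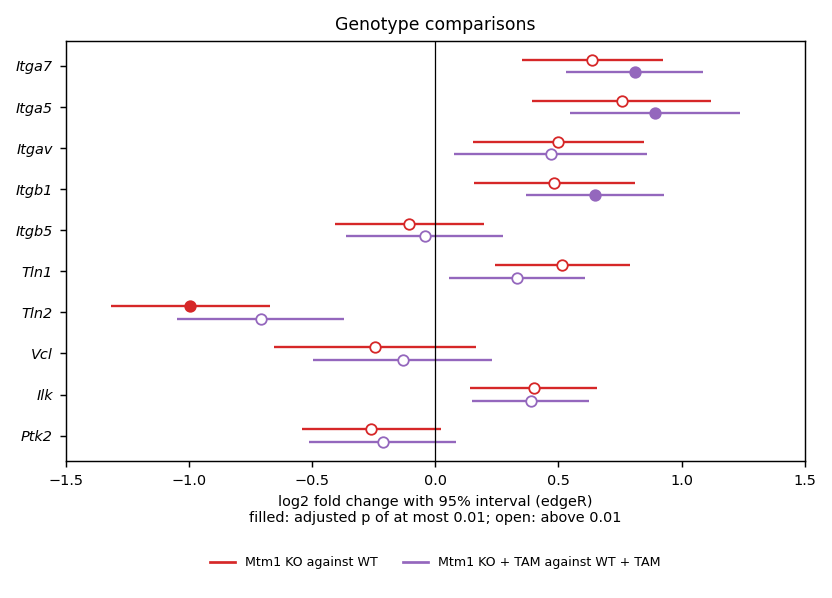
Log2 fold change of each member (points) with its 95% interval (lines) from edgeR, for the genotype comparison without and with tamoxifen, filled where the adjusted p was at most 0.01. *Tln2* lies at -0.99 and -0.71 and *Itga5* at 0.76 and 0.89, while the intervals of *Itgb5*, *Vcl* and *Ptk2* include 0 and the sign of these 3 genes turns positive when libraries are scaled by total count alone.

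*Itga7* encodes the alpha subunit of the main laminin receptor of muscle fibers and lies on chromosome 10 from 128933818 to 128958282 (plus strand). Its level was 23.8, 27.9 and 22.6 in the 3 WT libraries, and 36.6, 37.9 and 39.2 in the 3 *Mtm1* KO libraries. On tamoxifen it was 21.5, 23.1, 21.7 and 22.2 in WT + TAM, and 36.0, 39.3, 47.7 and 31.9 in *Mtm1* KO + TAM. Every knockout library lay above every wild-type library used. The log2 fold change was 0.64 ± 0.13 (SE) in *Mtm1* KO against WT, with an adjusted p of 0.0141, and 0.81 ± 0.13 in *Mtm1* KO + TAM against WT + TAM, with an adjusted p of 0.0020. The second call held when each of the 8 libraries was left out in turn. The libraries left out had 32.1 (WT replicate 1), above the other WT libraries, and 43.3 (KO replicate 12).

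*Itga5*, the alpha subunit of the fibronectin receptor, lies on chromosome 15 from 103344286 to 103366763 (minus strand). Its level was 5.28, 5.20 and 3.94 in WT and 9.03, 8.01 and 6.91 in *Mtm1* KO. It was 4.21, 4.22, 5.92 and 5.06 in WT + TAM and 9.15, 6.77, 10.3 and 9.77 in *Mtm1* KO + TAM. The genotypes did not overlap with or without tamoxifen. The log2 fold change of 0.76 ± 0.16 (SE) in *Mtm1* KO against WT had an adjusted p of 0.0189, and that of 0.89 ± 0.16 in *Mtm1* KO + TAM against WT + TAM had an adjusted p of 0.0038 and was called. The call was lost without WT + TAM replicate 6 or 8 or KO + TAM replicate 13, 15 or 16, with adjusted p-values of 0.0102 to 0.0154. With each library left out, its log2 fold change ranged from 0.83 to 1.01, and 424 to 921 of all genes were called, against 979. The ratio of *Itga7* to *Itga5* within a library was 4.51 to 5.74 in WT and 4.05 to 5.67 in *Mtm1* KO, which overlapped.

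*Itgav*, the alpha subunit of receptors for vitronectin and other RGD ligands (chromosome 2, 83724397 to 83806916, plus strand), was the lowest member. Its level was 3.43, 4.56 and 3.19 in WT and 5.44, 4.93 and 5.18 in *Mtm1* KO, with no overlap. In WT + TAM it was 2.28 to 3.39 and in *Mtm1* KO + TAM 2.99 to 5.27, which overlapped, though not in RPKM before TMM scaling. The log2 fold changes of 0.50 ± 0.15 (SE) and 0.47 ± 0.18 did not pass, with adjusted p-values of 0.0636 and 0.0965.

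*Itgb1* encodes the beta 1 subunit, the partner of alpha 7 and alpha 5, and lies on chromosome 8 from 128685654 to 128733200 (plus strand). Its level was 80.9, 89.4 and 76.5 in WT and 116.6, 96.2 and 126.6 in *Mtm1* KO. It was 64.3, 74.4, 78.2 and 80.7 in WT + TAM and 94.5, 126.8, 118.4 and 125.6 in *Mtm1* KO + TAM. The lowest knockout library (94.5) lay above the highest wild-type library used (89.4). The log2 fold change was 0.48 ± 0.15 (SE) in *Mtm1* KO against WT, with an adjusted p of 0.0592, and 0.65 ± 0.13 in *Mtm1* KO + TAM against WT + TAM, with an adjusted p of 0.0064. That call was lost without any of the 8 libraries but KO + TAM replicate 13, with adjusted p-values of 0.0143 to 0.0216. With each library left out, the log2 fold change ranged from 0.58 to 0.75, and 424 to 921 of all genes were called, against 979. The library labelled WT replicate 1 had the lowest level of all 16 libraries, 54.7.

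*Itgb5*, the beta subunit that pairs with alpha v, lies on chromosome 16 from 33829665 to 33949338 (plus strand). Its level was 19.6 to 22.2 in WT, 16.8 to 21.1 in *Mtm1* KO, 16.5 to 25.8 in WT + TAM and 19.7 to 22.2 in *Mtm1* KO + TAM. The log2 fold changes of -0.10 (95% interval -0.41 to 0.20) and -0.04 (-0.36 to 0.28) did not pass, and both became positive (0.20 and 0.24) when libraries were scaled by total count alone, which put the median of all genes at 0.33 and 0.27. The ratio of *Itgb1* to *Itgb5* was 3.45 to 4.57 in WT and 4.65 to 6.95 in *Mtm1* KO, while that in WT + TAM (3.03 to 4.51) overlapped with that in *Mtm1* KO + TAM (4.26 to 6.38). A ratio within a library does not depend on how libraries are scaled.

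*Tln2*, the main talin of mature striated muscle, lies on chromosome 9 from 67217087 to 67559703 (minus strand). Its level was 9.98, 13.3 and 10.3 in the 3 WT libraries, and 5.79, 5.39 and 5.41 in *Mtm1* KO. It was 7.63, 13.1, 9.43 and 10.1 in WT + TAM and 5.62, 6.08, 5.91 and 7.01 in *Mtm1* KO + TAM. All 7 knockout libraries lay below all 7 wild-type libraries used, and the knockouts were spread over a narrower range. *Tln2* fell by 0.99 ± 0.14 (SE) on the log2 scale in *Mtm1* KO against WT, to 0.502 of its WT level, with an adjusted p of 0.0039. In *Mtm1* KO + TAM against WT + TAM the log2 fold change was -0.71 ± 0.15, with an adjusted p of 0.0106, just outside the threshold. It was called in DESeq2 (adjusted p 5.02e-04), without a filter on low counts (0.0049), in 1 fit of all 4 groups (0.0039) and without WT + TAM replicate 5 (0.0038). With libraries scaled by total count alone that value was -0.43 (adjusted p 0.0667), and in RPKM before TMM scaling the *Tln2* ranges of these groups overlapped. The call in *Mtm1* KO against WT was lost without WT replicate 4, KO replicate 10 or KO replicate 11, with adjusted p-values of 0.0136 to 0.0181. It held with KO replicate 12 added (5.50, adjusted p 0.0049). In the fits that lost it, calls over all genes numbered 194, 211 and 182, against 531 with no library left out. The log2 fold change of *Tln2* ranged from -1.07 to -0.85 with each library left out. The library labelled WT replicate 1, with a knockout-like *Mtm1* count, had a *Tln2* level of 5.71, also within the range of the knockouts, and adding it gave an adjusted p of 0.135. Its marker levels did not follow the knockouts, with 23.3 for the regenerating fiber markers (WT 24.9 to 29.0, *Mtm1* KO 89.7 to 131.2), 128100 for the muscle fiber markers, above the other WT libraries, and 43.0 for the macrophage and leukocyte markers, below them. The call was also lost in limma on RPKM, with -0.66 and an adjusted p of 0.0117. RPKM is scaled by total count alone, and the median of all genes in that fit was 0.32.

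*Tln1*, the talin found in most cell types, lies on chromosome 4 from 43531519 to 43562691 (minus strand). Its level was 12.5, 10.6 and 11.6 in WT and 15.4, 17.2 and 16.3 in *Mtm1* KO. It was 10.7 to 13.4 in WT + TAM and 13.8 to 18.1 in *Mtm1* KO + TAM, above every wild-type library used. The log2 fold changes of 0.52 ± 0.12 (SE) and 0.33 ± 0.13 had adjusted p-values of 0.0267 and 0.0946 and were not called. The libraries left out had 18.1 (labelled WT replicate 1) and 25.5 (KO replicate 12). In *Mtm1* KO against WT, adding the first gave 0.32 (adjusted p 0.492) and adding the second gave 0.69 (adjusted p 0.0551). The ratio of *Tln2* to *Tln1* was 0.799 to 1.25 in WT and 0.658 to 1.22 in WT + TAM, against 0.313 to 0.376 in *Mtm1* KO and 0.327 to 0.507 in *Mtm1* KO + TAM. No knockout library used reached the lowest ratio of the wild-type libraries used. The libraries left out had ratios of 0.315 (labelled WT replicate 1), within the range of the knockouts, and 0.215 (KO replicate 12), below it. The summed level of the talins was 22.8 ± 1.00 (SD, n = 3) in WT and 22.3 ± 2.12 (n = 4) in WT + TAM. It was 21.8 ± 0.711 (n = 3) in *Mtm1* KO and 21.55 ± 1.77 (n = 4) in *Mtm1* KO + TAM, and these ranges overlapped. That overlap depends on the scaling. In RPKM before TMM scaling, the summed talins of the knockouts lay wholly above those of the wild types used, with and without tamoxifen.

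**Figure D3:**
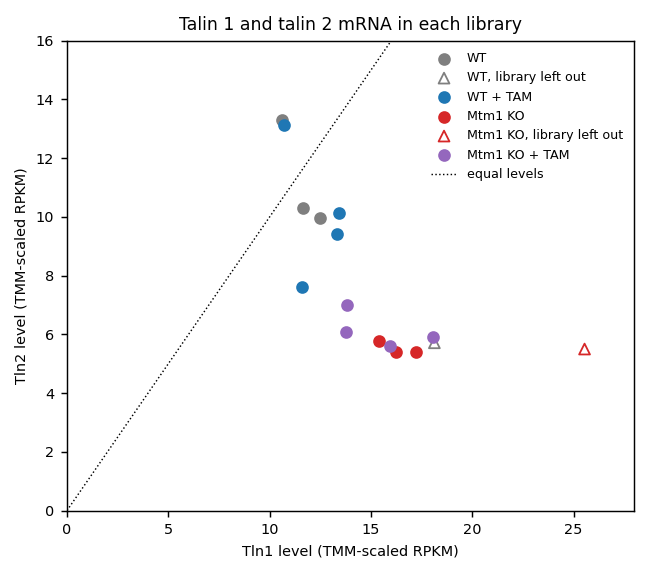
Level of *Tln2* (y axis) against that of *Tln1* (x axis), both in TMM-scaled RPKM, with 1 point per library, open triangles for the libraries left out and a dotted line for equal levels. The knockout libraries lie to the lower right, at *Tln1* levels of 13.8 or more and *Tln2* levels of 7.01 or less, and the triangle labelled WT lies at 18.1 and 5.71.

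*Vcl* encodes vinculin, which binds talin and actin, and lies on chromosome 14 from 20929398 to 21033676 (plus strand). Its level was 20.3 to 26.7 in WT, 14.4 to 21.7 in *Mtm1* KO, 15.6 to 22.3 in WT + TAM and 14.5 to 23.9 in *Mtm1* KO + TAM. The log2 fold changes of -0.25 (95% interval -0.65 to 0.16) and -0.13 (-0.50 to 0.23) did not pass, and turned positive (0.073 and 0.15) with libraries scaled by total count alone. Of its 50-base stretches, 25.1% occurred in *Ap3m1* on the opposite strand. The strand setting of the counting is not given in the sources used here, so reads of these genes may not be told apart, and *Ap3m1* had a log2 fold change of -0.59 (adjusted p 0.0218) in *Mtm1* KO against WT.

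*Ilk*, which encodes the kinase-like adaptor on the beta 1 tail, lies on chromosome 7 from 105736592 to 105742925 (plus strand). Its level was 20.6 to 22.6 in WT, 27.1 to 29.4 in *Mtm1* KO, 19.3 to 24.3 in WT + TAM and 26.6 to 30.3 in *Mtm1* KO + TAM. The knockouts lay above the wild types used, but the log2 fold changes of 0.40 ± 0.11 (SE) and 0.39 ± 0.11 had adjusted p-values of 0.0513 and 0.0327 and were not called. Of its stretches, 69.3% occurred in 3 other genes, and 59.4% in *Taf10*, which overlaps it. Opposite-strand matches covered 66.2% of its stretches. The division of reads between these genes is therefore uncertain. *Taf10* itself had log2 fold changes of 0.067 and 0.0043, with adjusted p-values of 0.747 and 0.985.

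*Ptk2* encodes FAK, the tyrosine kinase of focal adhesions, and lies on chromosome 15 from 73205102 to 73423280 (minus strand). Its level was 5.90 to 6.96 in WT, 4.91 to 5.64 in *Mtm1* KO, 5.22 to 6.86 in WT + TAM and 4.66 to 6.61 in *Mtm1* KO + TAM. Log2 fold changes of -0.26 (95% interval -0.54 to 0.02) and -0.21 (-0.51 to 0.09) did not pass, with adjusted p-values of 0.197 and 0.308, and were 0.053 and 0.064 with libraries scaled by total count alone. *Mtm1* KO and WT did not overlap in level, but did in RPKM before TMM scaling.

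The genotype effect averaged over both chows was fitted to the 14 libraries together, a test added after the data were seen. In it 6 of the 10 members were called, where 19.4% of 15556 genes were called (8.99% higher, 10.4% lower). *Itga7* (log2 difference 0.71 ± 0.09, SE), *Itga5* (0.81 ± 0.12), *Itgb1* (0.55 ± 0.10), *Tln1* (0.41 ± 0.09) and *Ilk* (0.38 ± 0.07) were higher in the knockouts and *Tln2* (-0.86 ± 0.11) was lower. Their adjusted p-values ran from 3.58e-05 for *Itga7* to 0.0021 for *Tln1*. *Itgav* had 0.47 ± 0.13 and an adjusted p of 0.0119. The genotype effects with and without tamoxifen were not shown to differ for any member, since no interaction was called, as given below.

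Muscle holds many cell types, and in bulk RNA fewer cells of a type and less RNA per cell cannot be told apart. The muscle fiber markers were present in every library, and their summed level over 10 genes was 77490 to 97210 in WT and 48330 to 53900 in *Mtm1* KO. The largest part was *Acta1*, with a mean of 30170 in WT. Of the 10, 5 were lower and none higher at an adjusted p of at most 0.05, and 3 had a positive log2 fold change. On tamoxifen the sum was 79670 to 92170 in WT + TAM and 43150 to 68660 in *Mtm1* KO + TAM. There, 6 markers were lower and 2 (*Myh1* and *Myh2*) higher at 0.05. All 5 markers of regenerating fibers were called higher in both genotype comparisons, with summed levels of 24.9 to 29.0 in WT, 89.7 to 131.2 in *Mtm1* KO, 17.6 to 37.5 in WT + TAM and 74.2 to 96.7 in *Mtm1* KO + TAM. Of the 6 macrophage and leukocyte markers, none was called at 0.01, and 3 and 2 were higher at 0.05 without and with tamoxifen, with summed levels of 60.7 to 70.4 in WT, 86.6 to 109.2 in *Mtm1* KO, 28.8 to 79.2 in WT + TAM and 81.1 to 142.6 in *Mtm1* KO + TAM. These marker levels move with genotype beside *Itga7*, *Itga5*, *Itgb1*, *Tln1* and *Tln2*, and their part in those differences was not tested. Of all genes tested, 6.26% were higher and 6.53% lower at 0.05 without tamoxifen, and 8.19% and 8.81% on it. At 0.01, 1.91% were higher and 1.69% lower without tamoxifen, and 3.42% and 3.3% on it. Fibroblast markers summed to 809.0 to 848.4 in WT and 789.8 to 1060.0 in *Mtm1* KO, endothelial markers to 65.2 to 102.5 and 55.4 to 77.3, and fat cell markers to 378.9 to 2259.0 and 1247.0 to 2273.0. Each of these overlapped between genotypes, and so did the summed satellite cell markers (10.7 to 13.8 and 9.97 to 12.4), of which *Cdh15* made up 7.40 in WT, and nerve markers (35.7 to 92.7 and 44.4 to 63.3). Of the 5 satellite cell markers, *Calcr* was called lower in *Mtm1* KO against WT, at a level of 0.0136 ± 0.0126 against 0.355 ± 0.0855 (SD, n = 3 each, adjusted p 0.0052), and *Pax7* passed at 0.05, at 0.269 ± 0.0634 against 0.714 ± 0.127 (adjusted p 0.0161). On tamoxifen, fibroblast markers did not overlap (501.6 to 740.4 in WT + TAM, 803.2 to 861.5 in *Mtm1* KO + TAM), nor did satellite cell markers (12.7 to 14.7 and 8.24 to 12.1). Smooth muscle markers were 205.7 to 241.9 in WT and 182.2 to 195.0 in *Mtm1* KO. No marker of any list was at 0 in all libraries.

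Tamoxifen moved no member past the threshold in either genotype. In *Mtm1* KO + TAM against *Mtm1* KO, 0 of 10 members and 0 of 15062 genes (0%) were called by edgeR, while 1137 genes and 0 members had an unadjusted p of at most 0.05 (7.55% of genes), and DESeq2 called 68 genes and 0 members. Log2 fold changes ran from -0.30 for *Itgav* (95% interval -0.68 to 0.07, adjusted p 0.769, the lowest) to 0.16 for *Itga5* (-0.20 to 0.52). *Tln2* had 0.14 (-0.12 to 0.40), *Itga7* 0.02 (-0.30 to 0.34) and *Itgb1* 0.03 (-0.31 to 0.37). The interval of *Tln2* does not reach the 0.99 by which it fell in *Mtm1* KO against WT. Every member's *Mtm1* KO + TAM and *Mtm1* KO libraries overlapped in level, where 7.69% of all genes did not overlap, but in RPKM before TMM scaling *Itgav* lay wholly lower in *Mtm1* KO + TAM.

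In WT + TAM against WT, 0 of 10 members were called by edgeR, where 0.131% of 14544 genes were called. DESeq2 called 208 genes and 0 members. No member had an unadjusted p of at most 0.05, as 10.7% of genes had. Log2 fold changes ran from -0.28 for *Itgav* (95% interval -0.66 to 0.09) to 0.08 for *Tln1* (-0.19 to 0.34), and *Tln2* had -0.15 (-0.55 to 0.24). All members overlapped between these groups, where 11.5% of genes did not. The test of the difference between the tamoxifen effects in *Mtm1* KO and in WT called 0 members and 0 of 15556 genes in edgeR (664 genes, 4.27%, and 0 members at an unadjusted p of at most 0.05, 12 genes and 0 members in DESeq2). Its largest value was 0.31 for *Tln2* (-0.17 to 0.78), and its smallest was -0.16 for *Tln1* (-0.53 to 0.21).

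**Figure D4:**
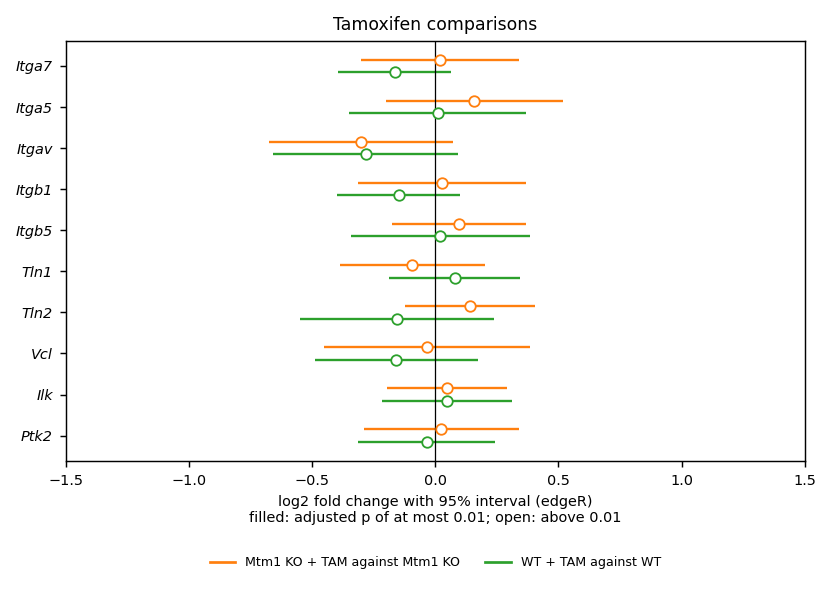
Log2 fold change of each member (points) with its 95% interval (lines) from edgeR, for *Mtm1* KO + TAM against *Mtm1* KO and WT + TAM against WT, with open points where the adjusted p was above 0.01. All 20 intervals include 0, and the values lie between -0.30 and 0.16.

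The other genes of the pathway were taken from 5 lists of 96 measured genes: other alpha and beta subunits, adhesion adaptors and kinases, integrin ligands, and genes of integrin traffic through endosomes. In *Mtm1* KO against WT, 3 of 93 tested were called higher and 2 lower, where 3.6% of all genes were called (1.91% higher, 1.69% lower). In *Mtm1* KO + TAM against WT + TAM, 8 of 92 were called higher and 1 lower, where 6.72% were called (3.42% higher, 3.3% lower). *Mtm1*, the targeted gene, is 1 of the lower calls in the first and the only 1 in the second, which the design fixed in advance. The median log2 fold change of the related genes was 0.07 and 0.09. In both tamoxifen comparisons 0 of these genes were called by edgeR. DESeq2 called 0 in *Mtm1* KO + TAM against *Mtm1* KO, where it called 68 of the 41388 genes of the table. In WT + TAM against WT it called 4 (2 higher, 2 lower), where it called 208 of the 41388 genes (111 higher, 97 lower).

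Of 14 other alpha subunits and 6 other beta subunits tested, none was called in either genotype comparison, and at 0.05 *Itga2b* and *Itga9* were higher and *Itga4* lower in *Mtm1* KO + TAM against WT + TAM. Among 34 adaptors and kinases, *Lims1* (a PINCH protein and partner of ILK) was called, with 11.97 ± 1.18 (SD, n = 4) in *Mtm1* KO + TAM and 7.72 ± 0.936 (n = 4) in WT + TAM and a log2 fold change of 0.64 ± 0.12 (SE, adjusted p 0.0053). In *Mtm1* KO against WT it had 0.46 ± 0.14, with an adjusted p of 0.0616. The call was lost without any of the 8 libraries but KO + TAM replicate 13, with adjusted p-values up to 0.0203. *Lims2*, also on this list, had -0.26 ± 0.26 without tamoxifen and -0.36 ± 0.16 on it, and was not called (adjusted p 0.536 and 0.152). At 0.05, 2 of the list were higher and 2 lower without tamoxifen, and 3 higher and 1 lower on it. *Fermt2* (a kindlin) was lower in both, by 0.57 ± 0.14 and 0.46 ± 0.14 (adjusted p 0.0301 and 0.0431).

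Of the ligands, 2 of 19 were called higher in *Mtm1* KO against WT and 5 of 19 in *Mtm1* KO + TAM against WT + TAM. Of all genes tested, 1.91% and 3.42% were called higher. *Postn* (periostin, a matrix ligand of alpha v integrins) was 9.69 ± 1.04 (SD, n = 3) in WT and 25.7 ± 7.19 (n = 3) in *Mtm1* KO, a log2 fold change of 1.43 ± 0.21 (SE, adjusted p 0.0046), and had 2.18 ± 0.26 in *Mtm1* KO + TAM against WT + TAM (adjusted p 5.64e-04). *Thbs4* (thrombospondin 4, a matrix protein of tendon and muscle) was 64.5 ± 10.1 in WT and 144.7 ± 14.5 in *Mtm1* KO, with log2 fold changes of 1.19 ± 0.15 and 1.45 ± 0.18 (adjusted p 0.0025 and 5.86e-04). *Spp1* (osteopontin, a ligand of alpha v integrins) had log2 fold changes of 3.24 ± 0.64 and 2.73 ± 0.28, with adjusted p-values of 0.0137 and 2.16e-04. *Thbs1* and *Ccn1*, also ligands, were called on tamoxifen (1.16 ± 0.20 and 0.99 ± 0.20, adjusted p 0.0035 and 0.0072) and had 1.06 ± 0.32 and 1.03 ± 0.34 without it (0.0607 and 0.0789). *Spp1* was 15.45 ± 6.17 (n = 3) in *Mtm1* KO and 6.69 ± 1.99 (n = 4) in *Mtm1* KO + TAM, with no overlap, but its log2 fold change of -1.22 ± 0.30 did not pass (adjusted p 0.233). In *Mtm1* KO against WT, the *Postn* call was lost without 5 of the 6 libraries in turn (all but KO replicate 11, adjusted p 0.0121 to 0.0237) and the *Thbs4* call without WT replicate 2 or 4 (0.0134 and 0.0160). With WT replicate 1 added neither was called (0.0182 and 0.228). Calls over all genes in that comparison fell from 531 to between 182 and 363 with each library left out, and to 120 with WT replicate 1 added. On tamoxifen, *Postn*, *Thbs4* and *Spp1* were called with any of the 8 libraries left out, *Thbs1* was lost without KO + TAM replicate 15 (0.0136), and *Ccn1* was lost in 6 of 8 (all but WT + TAM replicate 5 and KO + TAM replicate 14, adjusted p up to 0.0259).

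Among the endosomal traffic genes, *Rab11fip5* (an effector of the recycling GTPase Rab11) was 8.46 ± 1.27 (SD, n = 3) in WT and 17.45 ± 0.184 (n = 3) in *Mtm1* KO, and was called higher in both genotype comparisons, by 1.07 ± 0.14 and 1.14 ± 0.15 (SE, adjusted p 0.0023 and 7.37e-04). *Rab4a*, a GTPase of fast recycling, fell by 0.93 ± 0.15 in *Mtm1* KO against WT (adjusted p 0.0061) and had -0.50 ± 0.14 on tamoxifen (adjusted p 0.0311). *Arf6*, a GTPase of integrin recycling, was called on tamoxifen, with 0.77 ± 0.11 (adjusted p 0.0015), and had 0.53 ± 0.12 without it (adjusted p 0.0202). In *Mtm1* KO against WT, the *Rab11fip5* call was lost without WT replicate 2 or KO replicate 11 (adjusted p 0.0115 and 0.0117), and the *Rab4a* call without any of the 6 libraries (0.0141 to 0.0280). With WT replicate 1 added neither was called (0.0202 and 0.0183). Calls over all genes fell in these fits as given above for the ligands. On tamoxifen, *Rab11fip5* and *Arf6* were called with any library left out. *Mtm1* itself, on this list, fell by 2.56 ± 0.17 and 2.52 ± 0.20 on the log2 scale (adjusted p 2.14e-04 and 5.39e-05).

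**Figure D5:**
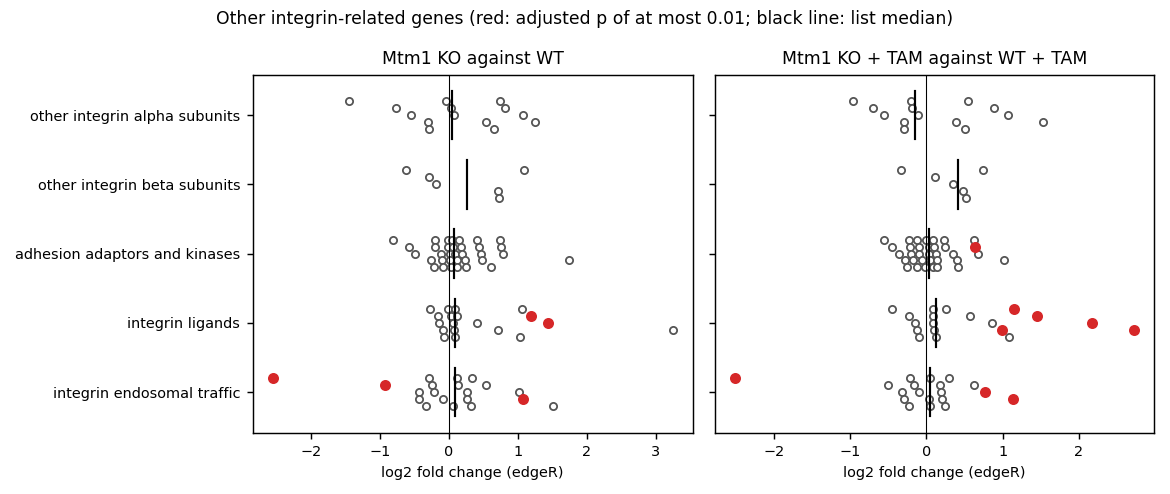
Log2 fold change of the genes of the 5 related lists (points, 1 per gene, spread vertically within a list for legibility) in both genotype comparisons, in red where the adjusted p was at most 0.01, with a black line at the median of each list. Of the red points, 2 of 5 on the left and 5 of 9 on the right are ligands, all to the right of 0. *Mtm1*, the targeted gene, is among the red points in both panels. Of all genes tested, 1.91% and 3.42% were called higher.

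The genes whose log2 CPM most resembled a called member over the 14 libraries are given as a description, since the groups alone give such correlations. For *Tln2* they were *Nek9* (Pearson's r 0.985), *Ibtk* (0.984) and *Lifr* (0.980). For *Itga7* they were *Dpp3* (0.970), *Ubxn4* (0.969) and *Serpinb1a* (0.962), and for *Itgb1* they were *Galnt7* (0.969), *Psmd5* (0.966) and *Popdc3* (0.966). For *Itga5* they were the ligand *Postn* (0.947), *Xirp1* (0.943) and *Cryab* (0.939). Among the members themselves, *Tln2* had r of -0.951 with *Ilk* and -0.881 with *Tln1*, and *Itga7* had 0.874 with *Itgb1*, over the same libraries and with the same groups and scaling factors shared.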

How the data were processed

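RNA-seq of quadriceps from 16 libraries was used from the deposited tables. Per the authors, reads were aligned to GRCm38 with STAR and counted per gene with HTSeq, and the submitters' processing notes also list bcl2fastq 2.17, STAR 2.5.0c and Cufflinks 2.2.1. Annotation, counting mode and strand: not given in the sources used here. The deposited counts are whole numbers. The RPKM values deposited by the authors were scaled by the total count alone (4037 genes with at least 5 RPKM in every library, largest relative deviation 1.14e-04), and levels were divided by TMM factors.

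Tests used edgeR 4.0.16 (R 4.3.3) on the counts of the groups compared, with TMM, filterByExpr (at least 10 counts, 15 in total) and quasi-likelihood tests, adjusted over all tested genes by Benjamini-Hochberg, at 0.01 as in the study. The interaction used the 14 libraries in 1 fit. Alternatives were DESeq2 1.42.0, limma 3.58.1 on log2(RPKM + 0.1), other scalings, no filter, a threshold of 0.05, 1 fit of all 4 groups, all 16 libraries and each library left out. Adding WT replicate 1 or KO replicate 12 alone and averaging the genotype effects were chosen after seeing the data. The members, lists and rules were chosen with earlier results of these data known.

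Named genes were the members, list genes called in a pairwise comparison and, for each member called in a genotype comparison, the 3 genes of highest Pearson's r in log2 CPM (prior count 2). *Itga2b*, *Itga9*, *Itga4*, *Lims2*, *Fermt2*, *Calcr*, *Pax7*, *Cdh15*, *Acta1*, *Myh1*, *Myh2*, *Ap3m1*, *Taf10* and *Creb3* were named after their values were seen. Of 149 list entries, 148 matched the table, 3 of them by identifier. Positions and coding sequences are from GENCODE vM21. Every run of 50 bases in a member's transcripts was looked up in those of all other genes. The fitting code was tested on simulated data.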

Additional observations from a re-analysis of the deposited data

Results flagged for a closer look

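Of 40 groups of 4 labelled libraries (10 members in 4 groups, the libraries left out included), 6 held 1 library far from the other 3, by Dixon's test at the 95% level, where chance gives about 1 in 20. WT + TAM replicate 5 was the lowest of its group for *Itgav* (2.28, the others 3.23 to 3.39), *Vcl* (15.6, the others 21.6 to 22.3) and *Ptk2* (5.22, the others 6.61 to 6.86). The library labelled WT replicate 1 was the highest for *Itgb5* (35.3, the others 19.6 to 22.2). KO replicate 9 was the lowest for *Itgb5* (16.8, the others 20.7 to 21.2), and KO + TAM replicate 16 was the lowest for *Ilk* (26.6, the others 29.7 to 30.3). None of these 5 genes was called in any pairwise comparison.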

How the results depend on the processing

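The study states that the sequenced samples were from littermates, but the labels give no litters and the groups share no replicate numbers. No paired analysis was therefore possible. The number of members called in *Mtm1* KO against WT (1) was 4 at a threshold of 0.05, 4 in DESeq2, 7 with total counts alone as scaling (6 higher, 1 lower), 3 without a filter, 2 in 1 fit of all 4 groups, 0 with all 16 libraries, 0 with WT replicate 1 added, 6 for the averaged genotype effect, 5 in limma (all higher, without *Tln2*) and 0 to 1 with each library left out. The related genes called (5, *Mtm1* among them) were 11, 12, 9, 8 (in 1 fit), 1 (16 libraries), 0 (WT replicate 1), 3 (KO replicate 12) and 18 (averaged effect), and 1 to 3 with each library left out. Calls over all genes moved as well, from 531 to 1885 at 0.05, 1630 in DESeq2 and 1096 without a filter. They were 987 in 1 fit, 824 in limma and 3013 for the averaged effect. With libraries added they were 211 (all 16), 120 (WT replicate 1) and 349 (KO replicate 12), and with each left out 182 to 363. In *Mtm1* KO + TAM against WT + TAM, the members called (3) were 5 at 0.05, 5 with total counts alone and 1 to 3 with each library left out. The related genes (9, *Mtm1* among them) were 18 at 0.05, 15 in DESeq2, 17 with total counts alone, 15 in limma and 6 to 9 with each library left out. Over all genes, 979 calls became 2476 at 0.05, 1935 in DESeq2, 1695 in limma and 424 to 921 with each library left out. In WT + TAM against WT, DESeq2 called 4 related genes (2 higher, 2 lower) and 208 of all genes. In both tamoxifen comparisons and the interaction, every alternative called 0 members.

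With total counts alone as scaling, all genes had a median log2 fold change moved from 0.02 to 0.33 in *Mtm1* KO against WT and from -0.01 to 0.27 on tamoxifen, and the share of calls that were higher from 53.1% to 88.0% and from 50.9% to 88.4%. All genes called numbered 531 and 979, and 1163 and 1874 with this scaling. Relative to those medians, *Tln2* lay at -1.01 and -0.70 and *Vcl* at -0.26 and -0.12. The RPKM used in limma has this same scaling. In limma the median of all genes was 0.32 and 0.25, and 87.1% and 88.7% of calls were higher.

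Signs reversed for uncalled values only. Under total counts and in limma on RPKM, in that order, log2 fold changes became 0.20 and 0.20 (*Itgb5*), 0.073 and 0.056 (*Vcl*) and 0.053 and 0.052 (*Ptk2*) in *Mtm1* KO against WT, and 0.24 and 0.26, 0.15 and 0.13, and 0.064 and 0.060 for the same genes on tamoxifen. Of the tamoxifen effects in *Mtm1* KO, *Itga7* became -0.014 and -0.042, *Itgb1* -0.0078 and -0.018 and *Ptk2* -0.020 and -0.030, and the interaction of *Ilk* -0.041 and -0.042. With all 16 libraries *Itga7* became -0.030 and *Vcl* 0.13 in *Mtm1* KO, and in WT *Itga5* became -0.038, *Itgb5* -0.19, *Tln1* -0.10, *Tln2* 0.043, *Vcl* 0.083, *Ilk* -0.016 and *Ptk2* 0.041. With each library left out, *Itgb5* on tamoxifen ranged between genotypes from -0.16 to 0.049. The tamoxifen effects in *Mtm1* KO ranged for *Itga7* from -0.10 to 0.11, *Itgb1* from -0.075 to 0.12, *Vcl* from -0.19 to 0.087 and *Ptk2* from -0.075 to 0.10, those in WT for *Itga5* from -0.11 to 0.093, *Itgb5* from -0.070 to 0.14, *Ilk* from -0.0008 to 0.12 and *Ptk2* from -0.094 to 0.045, and the interactions for *Itgav* from -0.18 to 0.13, *Itgb5* from -0.027 to 0.18, *Vcl* from -0.023 to 0.25, *Ilk* from -0.054 to 0.053 and *Ptk2* from -0.034 to 0.14. Of 780 values of single members under alternatives, 73 changed sign, 29 gained and 18 lost a call, and 660 kept their sign and side of the threshold. The cause was not tested. With 3 or 4 libraries a group, the spread between libraries limits what can be called.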
